A study of Homo sapiens with 2 samples.

Results

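The nucleolar RNA helicase DDX18, of the DEAD-box family, was pulled down with its crosslinked RNA from the human embryonic stem cell line H9, and 468 of the 16095 distinct peak positions in the deposited list (2.91%) lay at annotated transcription start sites outside small RNA genes. These positions carry the label promoter-TSS, which the annotation program HOMER gives by default from 1000 nt before to 100 nt after the start of a transcript, and the gene of the nearest start is not named as a small nucleolar, small Cajal body, small nuclear, signal recognition particle, RNase, vault, Y or micro RNA. A further 323 positions with that label were nearest to such a small RNA gene and were left out. The experiment was iCLIP, in which ultraviolet light joins a protein to the RNA it touches, the protein is pulled down and the RNA is sequenced. The 1 group, 3XFlag-DDX18 expressing human ESC under normal culture, held 2 samples, numbered 1 and 2, and all of them carried the FLAG-tagged protein, so no untagged or input sample is set against them here. The cells were grown on inactivated mouse embryonic fibroblasts, and whether the samples came from separate cultures is not given in the sources used here.

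A start site is where RNA polymerase begins a transcript. The stretch just after it becomes the 5′ end of the RNA, which carries the cap, and the stretch before it is promoter DNA that is not part of that transcript. A CLIP peak before a start therefore lies in another RNA that crosses the site, such as a longer transcript of the same gene, a neighbour that ends there or a gene on the other strand. Messenger RNAs of ribosomal proteins and other parts of the translation machinery typically begin with a C followed by a run of pyrimidines, the 5′ terminal oligopyrimidine tract, through which their translation is controlled. Histone genes of the replication-dependent kind are short, lack introns, and often stand as head-to-head pairs of an H2A and an H2B gene that share a promoter.

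The starts of 6 genes are shown first because their own RNA had a peak close to the start. They are the 6 highest such peaks 0 to 100 nt downstream among genes with exactly 1 start in the RefSeq table (GRCh38.p14), with some chromosomes left out, so several of the highest positions are not among them. Each line runs from 15 bases before that start to 15 bases after it, 5′ to 3′ on the gene's strand, and the capitals mark the transcribed bases. The peaks themselves were placed on hg19 and are not marked in these lines.
RPS16: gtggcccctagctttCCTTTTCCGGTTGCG
RPS3: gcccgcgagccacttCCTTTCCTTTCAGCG
UCHL1: ctgggcggctccgctAGCTGTTTTTCGTCT
GPC4: ccgcgcacgccggccAGTCAATCAGCGGCA
LDHB: gccccctcctccctcCTTGCAGAGCCGGCG
TRIM71: ctgagtgagtcggtgACTCCCCCACCCACC
RPS16 and RPS3 encode proteins of the small ribosomal subunit, and their peaks had heights of 27 at 42 nt and 25 at 58 nt. The windows lie on chr19:39435935-39435964 (minus strand) for RPS16 and chr11:75399503-75399532 (plus strand) for RPS3. UCHL1, a neuronal ubiquitin hydrolase, had a peak of height 22 at 89 nt, and its window is chr4:41256913-41256942 (plus strand). GPC4, a glypican of the cell surface, had one of height 19 at 82 nt, with its window at chrX:133415475-133415504 (minus strand). LDHB, a lactate dehydrogenase subunit, had one of height 19 at 1 nt, with its window at chr12:21657828-21657857 (minus strand), and TRIM71, an RNA-binding ubiquitin ligase of early development, one of height 19 at 43 nt, with its window at chr3:32817982-32818011 (plus strand). RPS16, RPS3, LDHB and TRIM71 held a C followed by at least 4 C or T within 5 bases of the start on either side, and UCHL1 and GPC4 did not. In LDHB the run begins before the start, and the transcribed bases shown do not hold one by themselves.

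The list gives 1 whole-number height per position and none per sample, so no height below has an error between samples, and no test between groups was possible. The median height of start-site positions was 9, with quartiles of 6 and 13.2 and a range of 3 to 2523, against 8 (quartiles 6 and 12) over the other 15627 positions. Their heights summed to 14683, or 2.25% of all peak height. Peaks labelled 5′ UTR numbered 363 with a median of 9, and coding peaks in first exons numbered 348 with a median of 8. A height of 20 or more was listed for 68 start-site positions (14.5%, exact 95% binomial interval 11.5 to 18.1), against 40 of the 5′ UTR peaks (11%, 7.99 to 14.7), 26 of the first-exon peaks (7.47%, 4.94 to 10.8) and 10.9% (10.4 to 11.4) of the other positions. The median width was 11 nt, against 11 nt for 5′ UTR peaks and 13 nt for the other positions. The deposited p-value stood at its lower limit of 1e-100 for 80 start-site positions (17.1%, 13.8 to 20.8), against 14.7% of the others. Intervals cover counting error only. The depth of each sample is unknown here, and no measure of how abundant each RNA was enters the heights.

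Most start-site positions lay in the RNA of the gene that starts there, and most of those lay after the start. The sign of the distance in the deposited list depends on the strand of the peak as well as that of the gene. Among starts with several peaks on 1 strand, the distance rose with the coordinate at 1778 of 1781 where peaks and gene shared the strand, and fell with it at 352 of 357 where they did not. Each sign was therefore multiplied by the strand of the peak, which gives the distance along the gene of the nearest start. At 216 of 218 starts with peaks on both strands, this placed the start at the same coordinate from either strand, within 30 nt. That gene was the called gene at 321 positions (68.6%, 64.2 to 72.8). It was another gene on the same strand at 72 (15.4%, 12.2 to 19), another on the opposite strand at 52 (11.1%, 8.41 to 14.3) and another whose start had no settled strand at 23 (4.91%). Of the 321 positions in a gene's own RNA, 272 lay at or after its start (84.7%, 80.3 to 88.5). With the sign as deposited this would be 154 (48%). A peak called in a gene can lie before its nearest start only where that gene reaches further upstream. How far the share after the start is set by how peaks were assigned to genes was not tested. Of the 147 positions called in another gene, 14 lay at or after the start (9.52%, 5.31 to 15.5). Over all 468 positions the number was 286 (61.1%, 56.5 to 65.6). By default the label reaches 1000 nt before a start but only 100 nt after it. Positions placed without regard to the start would therefore also lie mostly before it.

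**Figure D1:**
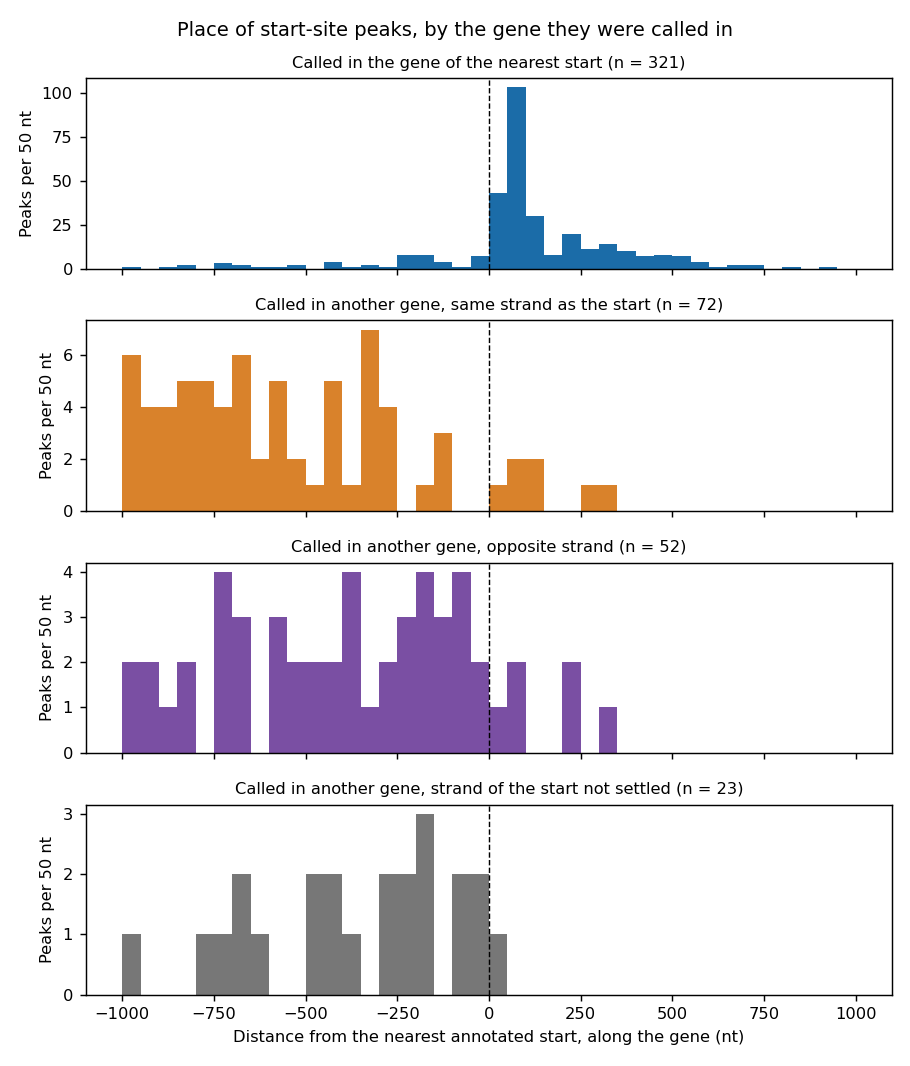
Number of start-site peaks per 50 nt (vertical axis) against distance from the nearest annotated start along the gene in nt (horizontal axis, dashed line at the start), for peaks called in that start's own gene (top, n = 321), in another gene on the same strand (next, n = 72), in another gene on the opposite strand (below that, n = 52) and in another gene where the strand of the start was not settled (bottom, n = 23). Of the peaks in the gene's own RNA, 148 lie 0 to 100 nt after the start, and those called in another gene, on either strand, lie mostly before it. By default the label ends 100 nt after a start and reaches 1000 nt before it, and its part in these places was not tested.

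Within a gene's own RNA, peaks became more frequent from the start toward the end of the labelled stretch. There were 15 positions at 0 to 24 nt, 28 at 25 to 49 nt, 42 at 50 to 74 nt and 63 at 75 to 100 nt. The label ends at 100 nt, so the same count was taken over peaks of any label: it was 61 at 75 to 99 nt, 77 at 100 to 124 nt, 65 at 125 to 149 nt and 67 at 150 to 174 nt, and 32 at 275 to 299 nt. Of the 77 peaks at 100 to 124 nt, 17 had the start-site label, against 61 of 61 in the bin before it. Distances run along the genome, so introns are counted in them. Heights changed little over the same stretch, with medians of 10, 11, 8 and 8 in the 4 bands up to 100 nt.

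**Figure D2:**
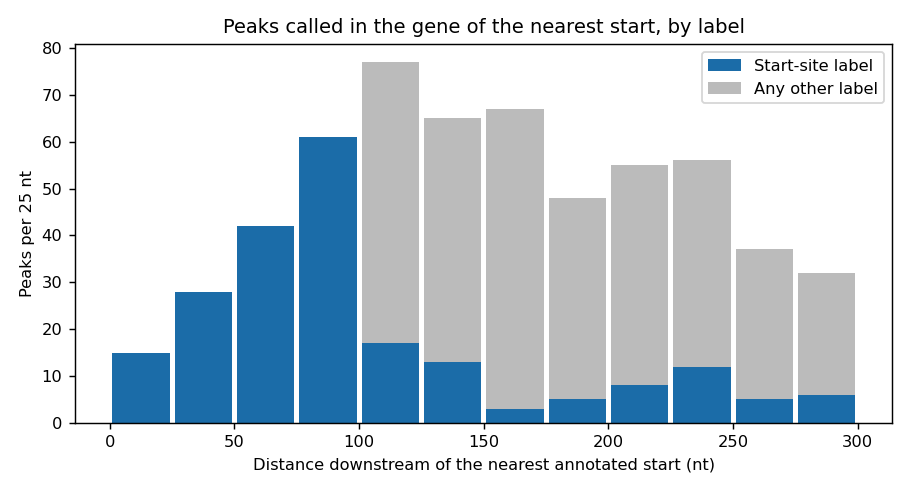
Number of peaks per 25 nt (vertical axis) called in the gene that the nearest start belongs to, against distance downstream of that start in nt (horizontal axis), with small RNA genes left out. Blue bars are peaks with the start-site label and grey bars those with any other label: the lowest bar is the 15 peaks at 0 to 24 nt and the highest the 77 peaks at 100 to 124 nt.

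The 321 own-gene positions fell into 148 at 0 to 100 nt after the start, 124 further downstream and 49 upstream. Medians of height were 9, 9 and 7 (quartiles 6 and 12.2, 6 and 16, and 6 and 16). Of the 148 nearest positions, 138 were labelled from a transcript of the same gene. Of the 124 positions over 100 nt downstream, 76 were labelled from the start of a gene on the opposite strand and 21 from another transcript of the same gene, while 7 were labelled from a small RNA gene. TSPAN4, a tetraspanin, was labelled from POLR2L, and NFYA, a subunit of the factor that binds CCAAT boxes, from OARD1. Among the 148 nearer positions 7 were labelled from an opposite-strand gene, among them that of PSMA7, a proteasome subunit, from SS18L1. These labels describe a neighbour's start, and the peaks lay in the RNA of the named gene. All 47 upstream positions whose label could be matched were labelled from a transcript of the same gene.

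The height of the start-site peaks was concentrated in few of them: the 4 highest held 7145 of 14683 (48.7%), and 268 positions (57.3%) had a height under 10. ANKRD30BL, on chromosome 2, had the highest, 2523 at positions 133015228 to 133015229 and 314 nt after the start, and another of 1051 at position 133015318. Both were labelled from the start of MIR663B. Of 14 positions called in ANKRD30BL, 11 carried an rRNA repeat name. The part of rRNA sequence in these 2 peaks was not tested. TSC2, which encodes tuberin, an inhibitor of growth signalling through mTOR, had a peak of 1818 at chr16:2098026-2098040 on hg19, 43 nt after the start, and no other peak in the gene. A peak of 1753 was called in LUC7L2, a splicing factor gene, 317 nt after the start of FMC1, its same-strand neighbour on chromosome 7, and was labelled from a start of the read-through gene FMC1-LUC7L2.

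SCAF4, which encodes a factor of transcription termination, had a peak of 653 at 77 nt, against a highest of 13 elsewhere in the gene. PSMA7 had one of 384 at 93 nt and TSPAN4 one of 201 at 320 nt, with no peak elsewhere in either. The peak of 189 nearest to the start of SNHG22, a long non-coding RNA, was called in SCARNA17, a small Cajal body RNA that guides modification of spliceosomal RNA, and so remained in the set although it lies in a small RNA. C12orf57 had a peak of 136 at -178 nt, before the start, and the same position was also called in ATN1. GRB2, an adaptor of receptor tyrosine kinases, had one of 134 at 319 nt. FBXO31, a subunit of a ubiquitin ligase, had one of 127 and CHRAC1, of a chromatin remodelling complex, one of 126, both of them upstream of the nearest start. MICAL2, an enzyme that oxidises actin, had one of 100 at 76 nt. A peak of 75 nearest to NKAIN4 was called in FLJ16779, while ATP2C1, a Golgi cation pump, and NFYA each had one of 73, at 96 and 213 nt. YWHAZ, a 14-3-3 protein gene, CHIC1, the histone gene H2BC12 and RPS20 followed with 65, 62, 59 and 58. No other peak was listed in C12orf57, FBXO31, CHRAC1, MICAL2 or NFYA, and the highest elsewhere was 10 in GRB2, ATP2C1 and YWHAZ, 6 in CHIC1 and 47 in RPS20.

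**Figure D3:**
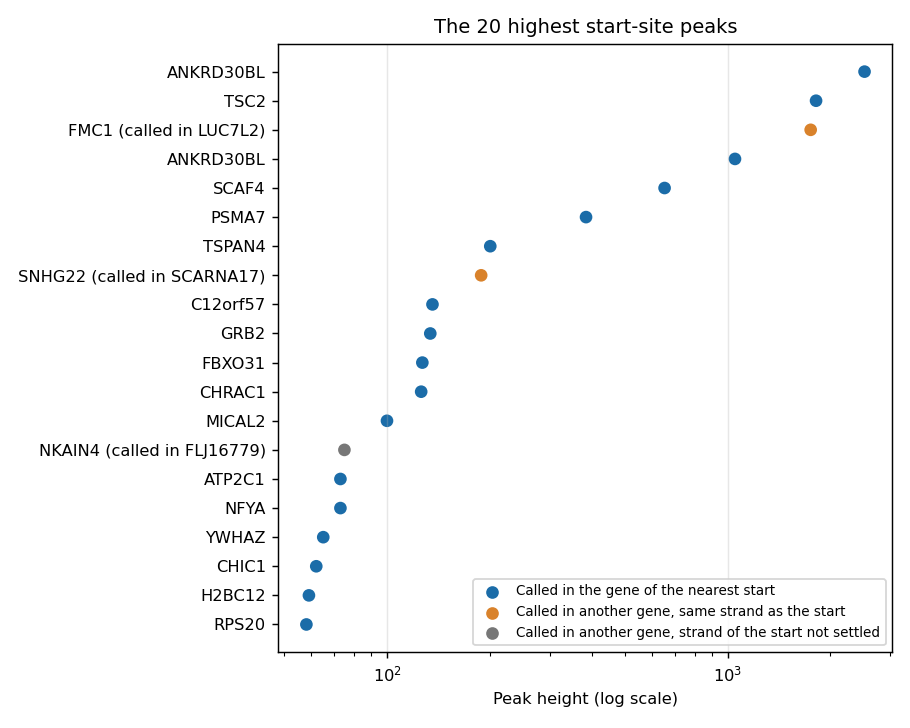
Height on a log scale (horizontal axis) of the 20 highest start-site peaks, from ANKRD30BL at 2523 down to RPS20 at 58, named by the gene of the nearest start and, where it differs, the called gene. Each dot is 1 peak of the deposited list, and its colour gives the relation between the called gene and the start.

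The peaks elsewhere in these genes were also compared with the start-site peak. Of the 297 genes with a start-site position in their own RNA, 98 had no other peak (33%), and their median height was 7. The other 199 genes had a median of 3 further peaks, and at most 55. The highest start-site peak exceeded the highest peak elsewhere in 44 genes, equalled it in 21 and was lower in 134, with medians of 9 at the start and 11 elsewhere. More peaks elsewhere give a higher maximum, and this was not corrected for.

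Of the 13 gene lists, those of histones and of cytosolic ribosomal proteins held the most genes with a start-site position. The lists differ in size. By share of genes with a start-site position, chromatin organisation and the lamina (10.3%) stood near the ribosomal proteins (10.6%). As background, 365 of 20056 protein-coding genes were the nearest start of such a position (1.82%), 287 had one in their own RNA (1.43%), and 31% had a peak anywhere. The lists and the members were chosen with earlier results of these data known, and no list was tested. Cytosolic ribosomal proteins had a start-site position in 9 of 85 genes (10.6%, 4.96 to 19.2), and 68 of the 85 had a peak anywhere. With peaks up to the list's median p-value of 3.87e-05, 5 of the 9 remained. All 9 lay after the start in the gene's own RNA, with a median height of 18. RPS20 had 58 at 131 nt, RPS16 27 at 42 nt, RPS3 25 at 58 nt and RPS29 18 at 56 nt. RPL32 and RPL38, of the large subunit, had 11 at 36 nt and 9 at 57 nt. The peaks of RPS20, RPS3 and RPL13 (13 at 335 nt) were labelled from the starts of SNORD54, SNORD15A and SNORD68, C/D box snoRNA genes, and how far those RNAs reach into the peaks was not tested.

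Replication-dependent histone genes had a start-site position in 12 of 69 (17.4%, 9.32 to 28.4), against the 1.82% of all protein-coding genes, and 29 of the 69 had a peak anywhere. Of 15 positions in their own RNA, 9 lay 395 to 517 nt after the start, which in the short genes is near the end of the gene: H2AC17, H2AC13 and H2AC6 span 487, 495 and 519 bases in RefSeq. H2BC21, H2BC12 and H2BC4 span 2224, 8566 and 10757 bases there, and their peaks lay 454, 478 and 395 nt after the start. All 9 were labelled from the start of another histone gene. Their heights had a median of 40 (13 to 59), with H2BC12 at 59, H2AC8 at 56, H2AC17 at 48, H2BC4 at 42 and H2AC6 at 40. The other 6 positions lay 30 to 282 nt after the start, with a median height of 17 (5 to 21). Of these 6, 3 were labelled from their own start, in H2BC5 (20 at 30 nt), H3C4 (18 at 61 nt) and H2BC18 (5 at 50 nt). The rest were labelled from another gene. The groups of 9 and 6 were separated at 300 nt after the values were seen, so their heights are a description. A further position 15 nt after the start of H2AC13, of height 19, was called in H3C10. Histone genes are near-identical copies of each other, and reads that fit several of them may have been placed in any.

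**Figure D4:**
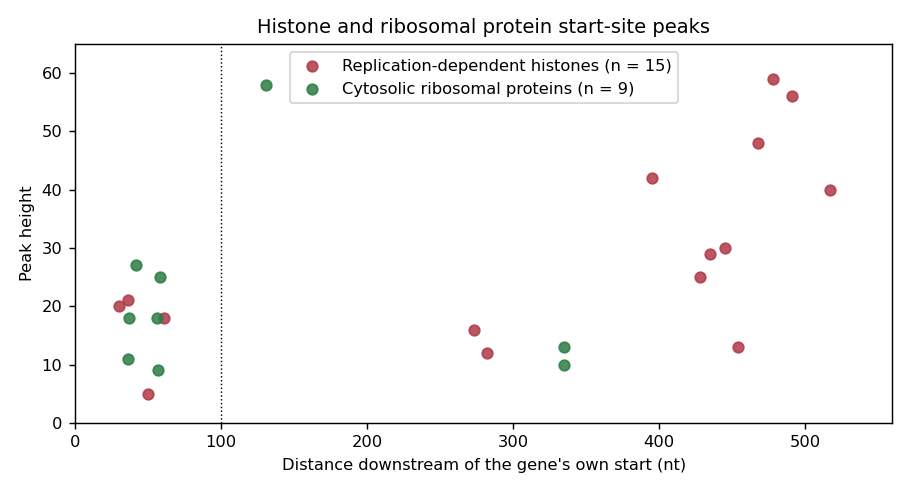
Height (vertical axis) against distance downstream of the gene's own start in nt (horizontal axis) for the 15 start-site peaks of replication-dependent histone genes (red) and the 9 of cytosolic ribosomal protein genes (green). The dotted line marks 100 nt, where the label of the gene's own start ends: 6 ribosomal protein peaks lie before it, and 9 histone peaks lie 395 nt or more after the start.

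Translation factors had a start-site position in 4 of 73 genes (5.48%, 1.51 to 13.4), and 44 of the 73 had a peak anywhere. TPT1, whose RNA begins with an oligopyrimidine tract, had 24 at 133 nt, and the initiation factor subunits EIF3F and EIF3E had 11 at 87 nt and 10 at 88 nt, while EIF4G3, a scaffold of the cap-binding complex, had 6 at 87 nt. Genes of chromatin organisation and the lamina had a start-site position in 4 of 39 (10.3%, 2.87 to 24.2), and 30 of the 39 had a peak anywhere. TRIM28, a corepressor that recruits heterochromatin factors, had 21 at 80 nt, the architectural protein HMGA1 16 at 37 nt, UHRF1, which reads hemimethylated DNA, 5 at 147 nt, and HMGB1 4 at 61 nt. None of the 4 had a p-value up to the list's median (0 of 39 genes). Heat shock proteins and chaperonins had a start-site position in 4 of 72 (5.56%, 1.53 to 13.6), and 32 of the 72 had a peak anywhere. The 4 were CCT5 at 10, HSPA4 at 8, CCT6B at 6 and a peak of 6 nearest to CCT6A that was called in PSPH on the opposite strand.

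The share of all protein-coding genes (1.82%) lies within the intervals for helicases and ribosome assembly factors. It also lies within those given above for translation factors and for heat shock proteins and chaperonins. DDX18 itself had 1 start-site position, of height 7 at 91 nt, with a deposited p-value of 0.0154, and DDX54 one of 8 at 120 nt, making 2 of 57 helicase genes (3.51%, 0.428 to 12.1). A peak anywhere was listed in 30 of the 57. Ribosome assembly factors had a start-site position in 2 of 61 (3.28%, 0.4 to 11.3), and 37 of the 61 had a peak anywhere. FBL, the methyltransferase that works with C/D box snoRNAs, had 11 at 79 nt, and UTP4 had 6 at 922 nt. Of 27 nucleolar structure and RNA polymerase I genes, 0 had a start-site position (upper limit of the exact interval 12.8%), although 14 had a peak anywhere. The same count was 0 of 24 pluripotency genes (upper limit 14.2%), of which 17 had a peak anywhere. Of 11 markers of the labelled cell type 9 had a peak anywhere, among them LIN28A, DNMT3B, L1TD1 and NANOG, while POU5F1 and SOX2 had none. Of the 11 markers, 0 had a start-site position. The number with a start-site position was also 0 of 15 fibroblast and feeder type markers (upper limit 21.8%), 8 of which had a peak anywhere. It was 0 of 16 germ layer markers (upper limit 20.6%), 6 of which had a peak anywhere. The snoRNA host genes had 1 of 49, the SNHG22 position described above, and 38 of the 49 had a peak anywhere.

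Splicing factors and hnRNPs had a peak anywhere in 51 of 84 genes. They were the nearest start of a position in 1 of the 84 (1.19%, 0.0301 to 6.46), HNRNPA2B1, with peaks of 28 at 177 nt and 21 at 104 nt. Counted by called gene, the number with a start-site position was 5, and LUC7L2, described above, was not among them. PRPF8, the central scaffold of the spliceosome, had a peak of 17 at -577 nt from the start of RILP. SF3A2 had one of 8 at -695 nt from AMH, and U2AF2, which binds the polypyrimidine tract of introns, had one of 12 at -584 nt from EPN1. SNRPN had 3 nearest to PWAR5, of heights 14, 12 and 10. The PRPF8, SF3A2 and U2AF2 peaks thus lay before the start of a neighbour on the same strand.

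The 72 positions called in another gene on the same strand lay mostly before the start, and the part of the label's reach in this was not tested. Of the 72, 65 were upstream of the start, 61 of them by 200 nt or more. The median distance of the 72 was -614 nt (quartiles -802 and -322). Their median height was 9, like that of the own-gene positions. AMDHD2, an enzyme of amino sugar catabolism, had 6 such positions between -992 and -196 nt, with heights of 7 to 17, all of them called in TBC1D24. Those of heights 17 and 13 were also called in another gene. CRTC2, a coactivator of CREB, had 5 between -957 and -484 nt, with heights of 28, 27, 19, 17 and 15, called in SLC39A1, a zinc transporter. RUSC1 had 3 called in FDPS, the synthase of farnesyl diphosphate, with heights of 17, 16 and 12, and 1 of 10 called in RUSC1-AS1 on the other strand. NPTN-IT1, a transcript inside the intron of neuroplastin, had 3 called in NPTN, of heights 8, 7 and 6. A peak of 31 in EIF4G1, the scaffold of cap-dependent translation initiation, lay at -685 nt from the start of FAM131A.

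The 52 positions called on the opposite strand also lay mostly before the start, and the part of the label's reach was again not tested. Of these, 46 were upstream, and the median distance of the 52 was -366 nt (quartiles -659 and -119). Their median height was 7 (4 to 57). At 23 of the 52 the nearest start belonged to a gene named as an antisense, intronic or overlapping transcript. The same held at 4 of the 72 same-strand positions and at 7 of the 23 with no settled strand. SEMA6A-AS1 had 6 positions called in SEMA6A, a semaphorin, with a height of 49 at 77 nt, after the start, and of 9 to 12 between -970 and -382 nt. ENO1-AS1 had 1 of 57 called in ENO1, the glycolytic enolase, and RUVBL1-AS1 had 2 of 23 and 6 called in RUVBL1, a helicase of chromatin remodelling complexes. MRPL49 had 1 of 20 called in FAU, a ribosomal protein gene. The 3 positions each at FLJ23867 (30, 21 and 20, called in QSOX1) and PINK1-AS (15, 13 and 12, called in DDOST) lay before the start, between -644 and -63 nt and between -696 and -255 nt, but the strand of these 2 starts is not settled here. The 23 positions of that kind had a median distance of -294 nt, and 22 lay before the start.

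**Figure D5:**
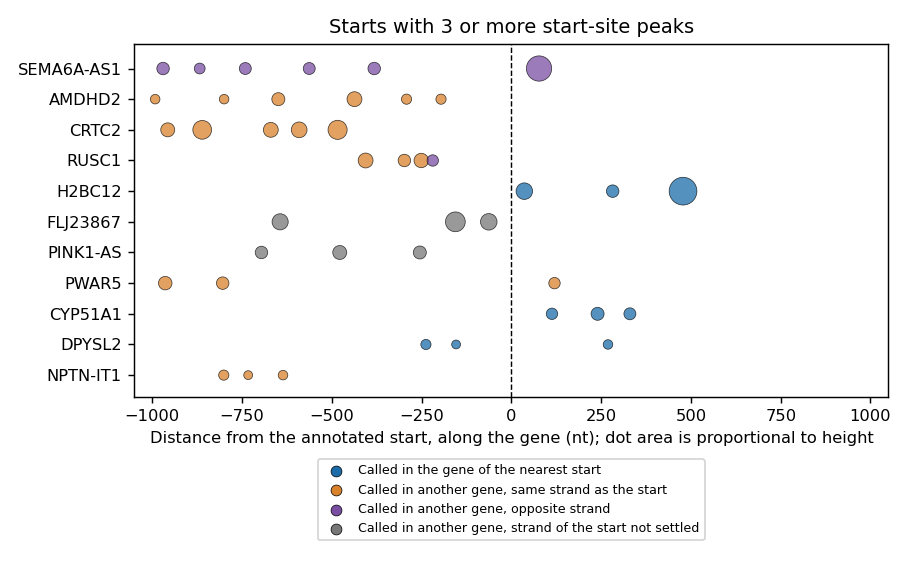
Distance from the annotated start along the gene in nt (horizontal axis, dashed line at the start) of the peaks at the 11 starts with 3 or more start-site peaks. Dot area is proportional to height and colour gives the relation between the called gene and the start: the peaks at AMDHD2 and CRTC2 all lie before the start in a same-strand neighbour, while those of H2BC12 and CYP51A1 lie after it in the gene's own RNA.

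Few starts held several positions: 366 of the 407 nearest genes had 1, 30 had 2 and 11 had 3 or more. Within a gene's own RNA, H2BC12 had 3, with heights of 21, 12 and 59 at 36, 282 and 478 nt. CYP51A1, the lanosterol demethylase of cholesterol synthesis, had 3 of 10, 13 and 11 at 113, 240 and 330 nt, and 11 further peaks with a highest of 35. DPYSL2, which regulates microtubules in growing axons, had 3 of 8, 6 and 7 at -238, -154 and 269 nt. The furthest upstream was the position at -992 nt from AMDHD2 and the furthest downstream the one of height 6 at 922 nt in UTP4, a ribosome assembly factor. Of all 468 positions, 24 were called in 2 or more genes and 5 in at least 5, among them 1 shared by 15 protocadherin alpha genes, whose variable exons join a common part.

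Promoter sequence was described for the 138 of 297 genes with a start-site position in their own RNA that had exactly 1 start in the RefSeq table, over 250 bases before and 50 after the start. A C followed by at least 4 C or T within 5 bases of the start, on the gene's strand, was found in 46 of 138 (33.3%, 25.5 to 41.9), against 24.6% (23.2 to 26.1) of 3441 protein-coding genes with any peak and 21.8% (21.1 to 22.6) of 11786 protein-coding genes. Bases before the start were included, so a run counted here need not lie in the transcribed RNA. Without ribosomal protein and histone genes the run was found in 36 of 124 (29%, 21.2 to 37.9), against 23.7% (22.3 to 25.2) of genes with any peak. That split was chosen after seeing the data. Among ribosomal protein genes with a start-site position it was 4 of 5, and among histone genes 6 of 9. The motifs below were searched on both strands, and a match to 1 of them may overlap a match to another. GGGCGG, bound by Sp1, was in 73.9% (65.8 to 81), against 73.5% of genes with any peak and 58.7% of protein-coding genes. CCAAT was in 42% (33.7 to 50.7), against 37.1% and 37.2%, GGAAGN, bound by ETS factors, in 76.8%, against 76.2% and 74.1%, and TGACGTCA, bound by CREB, in 2.17%, against 3.72% and 2.82%. These shares were not tested, and a match is not a bound site.

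TATAAA stood in 10.9% (6.21 to 17.3) of the 138 promoters, against 5.14% (4.43 to 5.94) of genes with any peak and 10.5% of protein-coding genes. It was in 8 of the 9 histone genes with a start-site position and 1 start, and without ribosomal protein and histone genes it was 6 of 124 (4.84%, 1.8 to 10.2), against 4.69% of genes with any peak. Stretches of 3 histone promoters of the H2A type show its place, with the TATAAA in capitals, read 5′ to 3′ on the gene's strand of GRCh38.p14.
H2AC17: cccagcagctgcTATAAAatgcgcgtccct
H2AC6: ccaggaactaccTATAAAagcggccatgtt
H2AC13: cccagtagaggcTATAAAatgtacgttttt
The stretches are chr6:27893199-27893228 (minus strand), chr6:26124129-26124158 (plus strand) and chr6:27808130-27808159 (plus strand), and in all 3 the TATAAA begins 31 bases before the start. The start-site peaks of these genes had heights of 48, 40 and 30 and lay 468, 517 and 445 nt after the start.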

How the data were processed

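Per the labels' protocols, crosslinking used ultraviolet light of 254 nm at 160 mJ/cm2, and an antibody to the FLAG tag recovered DDX18. Per the file headers, the deposited list was annotated on hg19 with annotatePeaks.pl of HOMER; the submitters' processing notes name FastQC 0.10.1 and BWA. The peak caller, and whether samples were pooled, is not given in the sources used here. Height is a signal, in whole numbers of unstated scaling, from the deposited list, and the p-value is the authors', read from the peak's name.

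The list held 17163 entries at 16095 positions. Members were 525 entries, counted once per position (468). A position was put in the gene's own RNA if any of its entries was called there. Distances were turned by the strand of the peak. The strand of the nearest start came from that call (321), the RefSeq promoter table (109) or other peaks called in the gene (15). Peaks lay on the strand of the called gene in 13592 of 13615 entries. Current symbols came from RefSeq by gene identifier (404 of 407 nearest genes). Python 3.11.15, pandas 2.3.3, numpy 2.4.6 and scipy 1.17.1 were used, and the classification was tested on simulated peaks. Promoters on chromosomes 8 and Y were not printed, and a few genes are not reported here. Intervals are exact 95% Clopper-Pearson intervals. Members, lists and alternatives were chosen with earlier results of these data known. Genes named are the 20 highest positions, starts with 3 or more, the 3 highest of each list, DDX18 and the extremes of distance; others were chosen after their values were seen.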

Additional observations from a re-analysis of the deposited data

How the results depend on the processing

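With peaks up to the median p-value of the list, the number of start-site positions was 242, their median height 12.5 and the number of list genes with a position 24, against 39. Within 100 nt of the start, the number was 173, with 89.6% at or after the start and 90.2% called in the nearest start's own gene, which follows from leaving out distant positions. Counting every entry gave 61.1% called in that gene, since a position shared by several genes then counts in each. The other 32 of 39 alternatives left the 5 main values within their interval or within 1.5 times. Among them were 3 settings chosen after seeing the data: without the 4 highest positions, without positions in 5 or more genes and without those labelled from a small RNA gene. With peaks up to the median p-value, the ribosomal protein genes with a position numbered 5 (against 9), the chromatin genes 0 (against 4), and the heat shock genes 1 (against 4), while the histone genes numbered 11 (against 12). Leaving out ribosomal protein and histone genes, a split chosen after seeing the data, gave TATAAA in 4.84% of promoters, against 10.9%. No paired analysis was possible because the list has no value per sample, and leaving out a replicate could not be run for the same reason. The number of reads behind each height is unknown here.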
